A study of Homo sapiens with 4 samples.

Results

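The genes described here are 9 targets of the transcription factor p53 in the A549 line, which was derived from a human lung adenocarcinoma and has wild-type p53. They were chosen by name (MDM2, CDKN1A, BAX, BAK1, BBC3, GADD45A, TP53INP1, SESN1 and FAS) and make up 9 of the 28283 genes of the expression table and 9 of the 12268 genes that reached an FPKM of 1 in either input library. FPKM is the number of fragments scaled to exon length and to the mapped fragments of the library, so levels can be compared between genes. In the m6A peak lists, 25 of 31057 peaks bore the name of a gene among the 9 in control cells and 11 of 27344 in knockdown cells.

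The study compared A549 cells with a control vector (shNC) and A549 cells with 1 shRNA against YTHDF2 (shY2-2), all grown in the same medium. Per the study's methods, the lines were made with lentivirus and selected with puromycin. Fragmented poly(A) RNA of each condition was sequenced directly as 1 input library, which serves as RNA-seq, and after pull-down with an antibody against m6A as 1 IP library. There are thus 4 libraries and no replicates, so no test was possible and the differences below have no replicate error. YTHDF2 itself had an FPKM of 3.56 in shNC and 1.02 in shY2-2, a log2 ratio of -1.18 on the log2(FPKM + 1) scale that is used for all ratios here and that understates the change of weakly expressed genes. Absolute depth is unknown, since FPKM keeps no counts. From the commonest ratio among 5294 genes at very low FPKM, the shY2-2 input was about 1.25 times as deep as the shNC input. In bulk RNA, fewer cells that express a gene and less RNA per cell cannot be told apart.

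p53 is held at a low level in unstressed cells by MDM2, a ubiquitin ligase that is itself a p53 target, so that p53 limits its own amount. When DNA is damaged or growth signals are abnormal, p53 accumulates and switches on genes that stop the cell cycle, repair DNA or kill the cell. The 9 genes cover these arms. CDKN1A encodes p21, an inhibitor of cyclin-dependent kinases, and GADD45A encodes a stress sensor that restrains entry into mitosis. BAX and BAK1 encode the proteins that perforate the outer mitochondrial membrane, BBC3 encodes PUMA, which releases them from inhibition, and FAS encodes a death receptor at the cell surface. TP53INP1 and SESN1 encode stress response proteins. YTHDF2 binds m6A, a methyl mark on adenosines of mRNA, and shortens the life of many mRNAs that carry it.

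The 9 genes did not move as a block. BAK1 was higher in shY2-2 than in shNC, CDKN1A, FAS and GADD45A were lower, and MDM2 and SESN1 had nearly equal values. BAK1 alone had a log2 ratio past 1 in either direction, 1 of 9 genes, against 0.986% of the genes tested past 1 upwards and 2.14% past -1 downwards. At a limit of 1.5-fold the count was 4, with BAK1 higher and CDKN1A, FAS and GADD45A lower, against 5.38% of all genes higher and 8.92% lower. The median log2 ratio of the 9 genes was -0.20, with 4 above 0 and 5 below, and the median of all genes was 0.00. Of all genes tested, 50.3% were above 0 and 49.7% below, the background for such counts in the lists below.

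Among the 9 genes, those of cell cycle arrest, CDKN1A and GADD45A, were lower in the knockdown library. CDKN1A (ENSG00000124762, chromosome 6 of GRCh38, 36676460 to 36687339, + strand) was the most abundant of the 9 genes in shNC at an FPKM of 52.7, and had 29.3 in shY2-2. This log2 ratio of -0.83 stood at percentile 3.86 of all genes, with the shNC level 1.8 times that of shY2-2. GADD45A (ENSG00000116717, chromosome 1, 67685061 to 67688338, + strand) had an FPKM of 7.89 in shNC and 4.68 in shY2-2. Its log2 ratio of -0.65 stood at percentile 7.29.

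The genes of the mitochondrial death pathway among the 9 went the other way or differed little. BAK1 (ENSG00000030110, chromosome 6, 33572547 to 33580293, - strand) had an FPKM of 4.8 in shNC and 12.2 in shY2-2, which is 2.54 times as high. Its log2 ratio of 1.19 stood at percentile 99.4 of all genes. BAX (ENSG00000087088, chromosome 19, 48954815 to 48961798, + strand) had an FPKM of 45.1 in shNC and 58.3 in shY2-2. BAX therefore passed CDKN1A as the most abundant of the 9 genes, with a log2 ratio of 0.36 at percentile 84.7. BBC3 (ENSG00000105327, chromosome 19, 47220822 to 47232766, - strand) had an FPKM of 3.3 in shNC and 2.73 in shY2-2. Its log2 ratio of -0.20 stood at percentile 29.7.

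The death receptor gene was lower. FAS (ENSG00000026103, chromosome 10, 88990582 to 89015785, + strand) had an FPKM of 4.6 in shNC and 2.24 in shY2-2. The plain ratio of these values was 2.05 in favour of shNC, but the log2 ratio with 1 added to each value was -0.79, at percentile 4.49. With 0.1 added instead of 1, the log2 ratio of FAS was just past -1 and the count of genes past 2-fold became 2.

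MDM2 and SESN1 differed least. MDM2 (ENSG00000135679, chromosome 12, 68808176 to 68850686, + strand) had an FPKM of 3.28 in shNC and 3.53 in shY2-2, a log2 ratio of 0.08. SESN1 (ENSG00000080546, chromosome 6, 108986437 to 109094819, - strand) had 2.09 and 2.21, a log2 ratio of 0.05. Both lay close to the middle of all genes, at percentiles 58.8 and 55.8. TP53INP1 (ENSG00000164938, chromosome 8, 94925972 to 94949411, - strand) had 2.23 in shNC and 1.51 in shY2-2, a log2 ratio of -0.36 at percentile 18.4. In shNC the order from high to low was CDKN1A, BAX, GADD45A, BAK1, FAS, BBC3, MDM2, TP53INP1 and SESN1. In shY2-2 it was BAX, CDKN1A, BAK1, GADD45A, MDM2, BBC3, FAS, SESN1 and TP53INP1, so BAK1 passed GADD45A and FAS moved from rank 5 to rank 7. Without replicates the spread between neighbours in these orders is unknown.

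**Figure D1:**
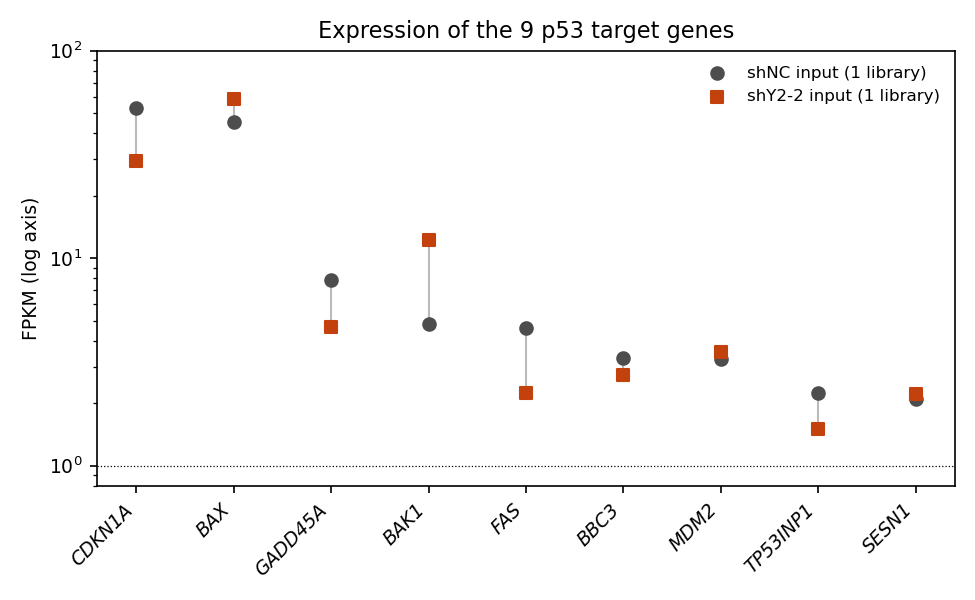
FPKM (log axis) of the 9 p53 target genes in the shNC input library (circles) and the shY2-2 input library (squares), ordered by the shNC value; each point is 1 library and the dotted line marks the FPKM filter of 1. The square is clearly above the circle for BAK1 (12.2 against 4.8) and below it for CDKN1A (29.3 against 52.7), GADD45A and FAS, while the points of MDM2 and SESN1 nearly coincide.

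Several of these genes share exonic sequence with a neighbour on the opposite strand. Per the study's methods the libraries were strand-specific (dUTP method), but the sources used here do not say whether strand was used to assign fragments to genes. BAK1 shares 91 of 2212 exonic nt with GGNBP1, which had FPKM values of 0.01 and 0.00639. Of 8306 nt, MDM2 shares 785 with the noncoding gene ENSG00000257181, at 0.0483 and 0.108, and 133 with CPM, a carboxypeptidase gene, at 1.04 and 0.805. FAS shares 1899 nt with the noncoding gene ENSG00000286116, for which no value was used here, and 387 nt with ACTA2, a smooth muscle actin gene, at 4.33 in shNC and 3.65 in shY2-2. TP53INP1 shares 225 nt with NDUFAF6, at 1.62 and 1.77. SESN1 shares 363 nt with the noncoding gene ENSG00000271730, at 0.41 and 0.11. CDKN1A shares 146 nt with the noncoding gene DINOL and BBC3 80 nt with the microRNA gene MIR3190, for which no values were used here. On the same strand, where strand cannot separate the genes, MDM2 shares 439 nt with the processed pseudogene ENSG00000256664, at 0.166 and 0.157. BBC3 shares 76 nt with the microRNA gene MIR3191, at 0.0697 and 0.0856. The part of these neighbours in the FPKM values was not tested.

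Other p53 targets showed the same mixture. Of 28 further direct targets, all of which passed the filter, 17 had a log2 ratio below 0 and 11 above, counting DDB2 at 0.00, with a median of -0.20. One of the 28 was past 2-fold, PLK2, a polo-like kinase gene, with 19.8 in shNC and 8.02 in shY2-2, a log2 ratio of -1.20. The next lowest values were those of ZMAT3, an RNA-binding protein gene, at 1.92 and 0.463, and of RPS27L, a ribosomal protein paralog, at 16.6 and 8.41. ZMAT3 passed the filter through shNC alone, the library where it was higher, as did SPATA18, at 1.23 and 0.35. PERP, a desmosomal protein gene, was highest, with 48.2 in shNC and 76.4 in shY2-2, a log2 ratio of 0.65. Of 4 genes known from DNA repair or nucleotide supply, 3 were lower in shY2-2: XPC had 19.1 and 13.7, POLH 6.04 and 5.14, and RRM2B 7.85 and 4.85, while DDB2 had 11.6 in both. PMAIP1, which encodes the BH3-only protein NOXA, had 5.84 in shNC and 8.61 in shY2-2, and TNFRSF10B, another death receptor gene, had 35.6 and 41.9. EDA2R, a receptor gene of the TNF family, had 13.8 and 9.16. The feedback phosphatase gene PPM1D had 6.19 and 5.07. In these lists, genes that are neither past 2-fold nor the extremes of their list were picked with their values known.

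The p53 pathway as listed in the annotation columns of the expression table (KEGG) held 66 genes, of which 56 passed the filter and 7 are among the 9. Of the 56, 31 had log2 ratios above 0 and 25 below, with a median of 0.03. These counts include genes that passed the filter only through the library where they were higher. Besides ZMAT3 and MDM4, they are CCNE2 (1.96 in shNC and 0.936 in shY2-2) and CCNG2 (0.84 and 1.36). CCNE1, which encodes cyclin E1, was alone past 2-fold upwards, with 12.1 in shNC and 39.0 in shY2-2, a log2 ratio of 1.61. IGFBP3, which encodes a binding protein of insulin-like growth factors, was alone past 2-fold downwards, with 61.8 and 26.7, a log2 ratio of -1.18. Among 13 expressed regulators and cofactors of p53, none was past 2-fold. The kinase gene ATR was lowest, with 3.98 and 2.15, a log2 ratio of -0.66. MDM4, the gene of the MDM2-related inhibitor, was highest, with 0.662 and 1.43, a log2 ratio of 0.55. It passed the filter through shY2-2 alone, the library where it was higher. CDKN2A, whose ARF product blocks MDM2, had values of 0.0153 and 0.0178 and did not pass the filter.

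Genes around the death arm were spread about 0. Of 14 further BCL2 family and caspase genes, 11 passed the filter, 6 had log2 ratios above 0 and 5 below, and none was past 2-fold. The extremes were MCL1, an anti-apoptotic gene, with 30.0 in shNC and 24.2 in shY2-2 (-0.30), and BCL2L2, another anti-apoptotic gene, with 6.11 and 9.25 (0.53). Downstream of FAS, the adaptor gene FADD had 23.4 and 38.9 (0.71), CASP8 had 7.06 and 9.26 (0.35), and CFLAR, whose product blocks caspase-8, had 2.83 and 2.18 (-0.27). CASP10, the other initiator caspase gene of the list, had 0.907 and 0.409 and did not pass the filter. With the genes below the filter included, the median of the list was 0.04 instead of 0.35. The paralogs differed among themselves: GADD45B had 8.32 and 4.65 (-0.72), next to -0.65 for GADD45A, while BOK, a relative of BAX and BAK1, had 7.42 and 10.5 (0.45).

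Of 12 cell cycle genes that p53 is known to lower through p21, 9 had log2 ratios above 0 and 3 below, where 50.3% of all genes were above 0. Their median was 0.47 against 0.00 for all genes, and none was past 2-fold. The highest was MYBL2, a transcription factor gene of dividing cells, with 54.3 and 98.3 (0.84), and the lowest CDK1, the mitotic kinase gene, with 18.1 and 15.6 (-0.20). BIRC5, which encodes survivin, had 6.57 and 12.2, and CCNB1, which encodes cyclin B1, had 60.6 and 94.6. These are values of 2 libraries, in which CDKN1A was lower and most of this list higher. Whether they are linked was not tested.

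The libraries also differed in general markers. All 6 epithelial markers were lower in shY2-2, with a median of -0.70, from KRT19 at 25.9 and 12.9 (-0.95) to EPCAM at 2.02 and 1.2 (-0.46), and a summed FPKM of 1600.0 in shNC and 1020.0 in shY2-2. None was at 0. KRT7 and KRT8, keratins of simple epithelia, stood at 649.0 and 523.0 in shNC. The surfactant gene SFTPC and the other alveolar type II markers in the table, LAMP3 and NAPSA, were below 1 in both libraries. The 5 markers of other cell types summed to 2.78 in shNC and 1.91 in shY2-2 and none was at 0. DES, a muscle gene, had 1.05 and 0.11, the collagen genes COL1A1 and COL3A1 had 0.834 and 1.64 and, the other way, 0.71 and 0.118, and the blood and endothelial markers PTPRC and PECAM1 stayed at or below 0.0999. Their part in the values of the p53 targets was not tested.

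**Figure D2:**
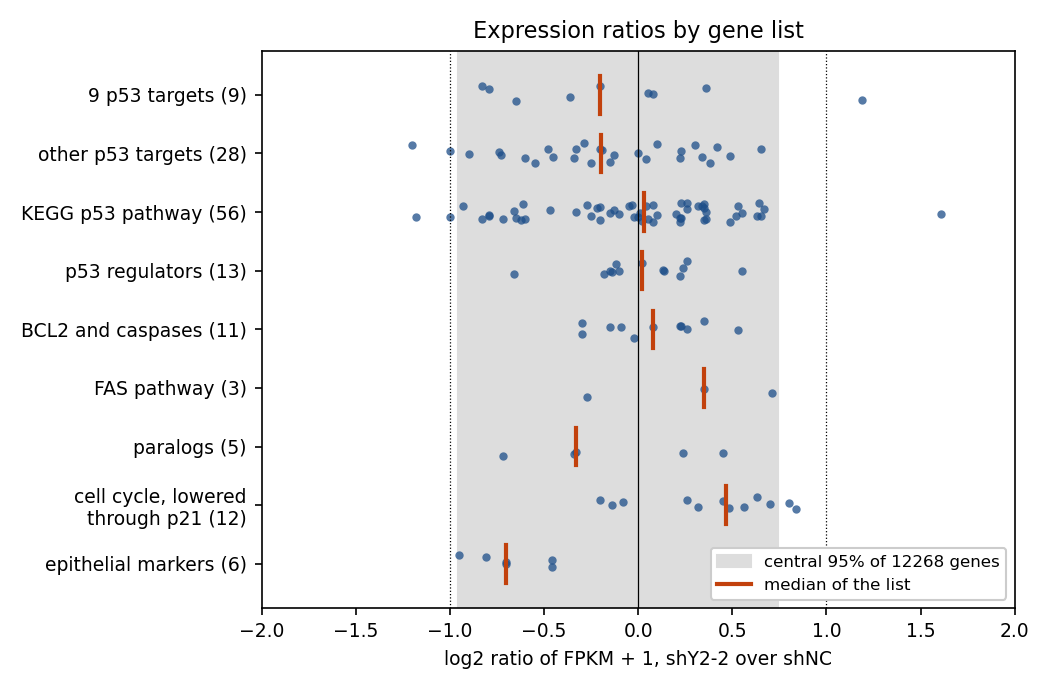
Log2 ratios of FPKM + 1, shY2-2 over shNC, of the genes past the FPKM filter in the 9 p53 targets and 8 other lists (number of genes in brackets); points are genes, thick bars list medians, dotted lines 2-fold, and the grey band holds the central 95% of all genes tested, from -0.96 to 0.74. BAK1 lies alone at 1.19 in the top row, the 9 targets and the other p53 targets share a median of -0.20, and the epithelial markers all lie below 0.

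The m6A lists were compared next. A peak is a stretch of transcript where the IP library of a condition was enriched over its input library, and its fold enrichment is that ratio. Both lists hold peaks with a p of up to 0.049, so many have a high false discovery rate (FDR). By gene name, 8 of the 9 genes had a peak in shNC, 7 in shY2-2 and 7 in both, where 72.7% of all genes past the FPKM filter had a peak in both lists. By these names, every gene with peaks in shNC had fewer in shY2-2. MDM2 went from 6 to 2, BAX from 4 to 3, BAK1, BBC3 and FAS from 3 to 1, 2 and 1, CDKN1A and GADD45A from 2 to 1, and SESN1 from 2 to 0, while no peak carried the name of TP53INP1. In all, 8 of 8 genes had fewer, whereas 56.1% of the 8108 genes with at least 2 shNC peaks did. At an FDR of at most 0.05 the 9 genes had 19 peaks in shNC and 8 in shY2-2, a limit that 56.4% and 52.1% of all peaks passed. Over all listed peaks, the ratio of peak numbers was 0.44 for the 9 genes and 0.88 for the whole lists. These counts depend on the gene names of the lists. Counted by position and strand, as described further on, the 9 genes had 22 regions in shNC and 16 in shY2-2, a ratio of 0.727, and MDM2 had 4 and 5. By name, 7 of the 8 genes also had fewer nt under peaks in shY2-2, as did 71.2% of the genes with at least 2 shNC peaks. The other direct p53 targets had 62 peaks in shNC and 51 in shY2-2, and of the 18 with at least 2 shNC peaks 10 had fewer.

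Of the 25 shNC peaks, 12 overlapped a shY2-2 peak by at least 1 bp of exon on the same strand, 48.0% against 55.9% of all shNC peaks. By position and strand this share was above that of all peaks instead, 65.2% against 56.7%. All 11 shY2-2 peaks overlapped a shNC peak, against 65.4% of all shY2-2 peaks. By the authors' annotation, 19 of 25 shNC peaks and 10 of 11 shY2-2 peaks lay in a 3′-UTR, against 59.1% and 59.5% of all peaks. By the midpoint of the peak in the reference transcript, the numbers were 12 instead of 19 in shNC and 7 instead of 10 in shY2-2. The share of all peaks by midpoint was not computed, so these numbers have no background. The median fold enrichment was 2.57 for the 25 peaks and 2.01 for the 11, with 2.17 and 2.26 over the whole lists. The motif GGAC, the core of the sequence that the m6A methyltransferase prefers, was present in the exonic sequence of 18 of 25 and 7 of 11 peaks, searched on the strand of the gene, against 61.0% and 60.6% of all peaks.

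The GGAC sites that lay in the common part of an overlapping pair of peaks follow for the pairs at the 3′ end of the transcripts, since these are the places where both libraries had an enriched region. Each line gives 21 nt of the spliced reference transcript (GENCODE release 44, GRCh38), 5′ to 3′, with GGAC in capitals. Of the 5 matches in the BAX pair 3 are shown, and the others lie at an exon junction or too close to the transcript end for a full window. A site is a match of letters, not a measured methyl mark.
MDM2, 3′-UTR, chr12:68843636-68843656, + strand: ttagaataGGACtgaggtaat
CDKN1A, 3′-UTR, chr6:36687002-36687022, + strand: gaggctatGGACagggcatgc
CDKN1A, 3′-UTR, chr6:36687156-36687176, + strand: actggcctGGACtgttttctc
CDKN1A, 3′-UTR, chr6:36687231-36687251, + strand: gagggcagGGACcacaccctg
BAX, last coding exon, chr19:48961546-48961566, + strand: ctactttgGGACgcccacgtg
BAX, 3′-UTR, chr19:48961645-48961665, + strand: gctgccttGGACtgtgttttt
BAX, 3′-UTR, chr19:48961702-48961722, + strand: ggattgggGGACgtgggcatt
BBC3, 3′-UTR, chr19:47221512-47221532, - strand: gggggtggGGACtgagccgcc
BBC3, 3′-UTR, chr19:47221551-47221571, - strand: cggctgatGGACtcagcatcg
BBC3, 3′-UTR, chr19:47221562-47221582, - strand: caggagagGGACggctgatgg
BBC3, 3′-UTR, chr19:47221597-47221617, - strand: ggagatgcGGACtcctgggtc
FAS, coding part of the last exon, chr10:89014382-89014402, + strand: atcctcaaGGACattactagt

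GGAC followed by T, the most favoured form, occurred in the MDM2 site, in 1 of the 3 CDKN1A sites, in 1 of the 3 BAX sites shown and in 3 of the 4 BBC3 sites, and the FAS site is followed by A. The MDM2 site lies 3797 nt past the stop codon. The 3 CDKN1A sites lie 1212, 1366 and 1441 nt past it, in a 3′-UTR of 1532 nt. The BAX site followed by T lies 19 nt past the stop codon. The common parts of the BAK1 and GADD45A pairs and of the BBC3 pair nearest to the end of the transcript held no GGAC, which says only that these letters are not in those stretches. DRACH, the wider motif of m6A, was present in all 25 shNC and all 11 shY2-2 peaks. It occurred 21.3 and 19.0 times per kb in these peaks, against 19.4 and 18.8 over all peaks. At such rates a peak of the median length, 270 nt, is likely to hold the motif, so its presence says little about these genes. Some GGAC sites listed above are followed by G and so do not match DRACH. They are the BAX sites at chr19:48961546-48961566 and chr19:48961702-48961722 and the BBC3 site at chr19:47221562-47221582.

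BAX had the highest fold enrichment among the shY2-2 peaks of the 9 genes. The region in its last exon (chr19:48961501-48961798 in shY2-2) had a fold enrichment of 20.6 in shNC (FDR 3.63e-07) and 87.9 in shY2-2 (FDR 2e-22). It covers the end of the coding sequence and the whole 3′-UTR of 162 nt. The log2 ratio of these enrichments, 2.09, stood at percentile 99.2 of the 17354 overlapping pairs of the whole lists, whose median was -0.06. The shNC peak was already at percentile 99.6 of its list. The number of input fragments under the last exon peak is unknown. At the 5′ end, 2 shNC peaks of BAX, with 2.57 and 2.11, both overlapped a single shY2-2 peak of 1160 nt with 3.18. That shY2-2 peak had a lower FDR than the last exon peak, 1.58e-35. The BAX peaks thus numbered fewer in shY2-2 but were longer in sum, 1578 nt against 1281 nt. The 2 shNC peaks fell within 1 shY2-2 peak. Of the 1160 nt of that shY2-2 peak, 873 lie outside the exons of the reference transcript. The same holds for 180 of 268 nt and 426 of 625 nt of the 2 shNC peaks. The greater length is therefore not a gain in reference exon of that size. A short peak at the end of the fifth exon had 1.20 and 1.23.

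GADD45A had the largest difference in the other direction. Its 3′-UTR peak (chr1:67687799-67688308 in shNC) had a fold enrichment of 4.58 in shNC and 1.91 in shY2-2, a log2 ratio of -1.26 at percentile 3.46 of all pairs. A second shNC peak at the 5′ end of GADD45A (chr1:67685211-67685797), with 2.98 and an FDR of 0.000209, had no counterpart in shY2-2. CDKN1A kept the peak at the far end of its 3′-UTR (chr6:36686980-36687339 in shNC), at 1.61 in shNC (FDR 1.26e-16) and 1.81 in shY2-2 (FDR 1.58e-14). The CDKN1A peak without a counterpart (chr6:36686203-36686323) was weak, at 1.23. The log2 ratio of the enrichments in the kept CDKN1A peak was 0.17, while the log2 ratio of its FPKM was -0.83.

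BAK1 kept a peak at the end of its 3′-UTR (chr6:33572547-33572876 in shNC), with 6.87 in shNC and 4.69 in shY2-2, a log2 ratio of -0.55. A BAK1 peak closer to the stop codon (chr6:33573204-33573473), with 1.99, was listed in shNC alone. Among the shNC peaks of the 9 genes, the highest fold enrichment was in the 3′-UTR of BBC3 (chr19:47220942-47221242 in shNC). It was 22.9 in shNC (FDR 1.82e-05) and 15.0 in shY2-2, a log2 ratio of -0.61. Lower FDR values occurred at lower enrichment, as in the shNC peak of BAX with 2.11 (FDR 3.16e-26). The BBC3 peak with the 4 sites shown above had 2.35 and 1.63, and another, at the 5′ end, had 3.82 with an FDR of 0.0603 in shNC alone. FAS kept a peak over the stop codon in shNC (chr10:89014138-89014557), with 1.87 in shNC and 2.01 in shY2-2. The 2 other FAS peaks of shNC, with 1.87 and 1.6, had an FDR of 0.107 and 0.158. SESN1 had 2 shNC peaks, with 7.63 over 91 nt of the 5′-UTR (FDR 0.164) and 1.89 near the stop codon (FDR 0.143), and neither would pass an FDR of 0.05.

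Over the 12 pairs in 7 genes, 6 had a higher and 6 a lower fold enrichment in shY2-2, with a median log2 ratio of -0.04, whereas 43.7% of all pairs were higher. The quartiles of all pairs were -0.36 and 0.22. The higher pairs were the 4 of BAX, of which 2 share a shY2-2 peak, and 1 each of CDKN1A and FAS. The lower pairs were those of MDM2, BAK1, BBC3 and GADD45A. BAK1, the gene with a higher FPKM past 2-fold, and MDM2 had a higher FPKM and a lower enrichment in shY2-2. CDKN1A and FAS had the reverse. BAX was higher in both measures, and BBC3 and GADD45A were lower in both. Whether the input level bears on the enrichment was not tested.

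**Figure D3:**
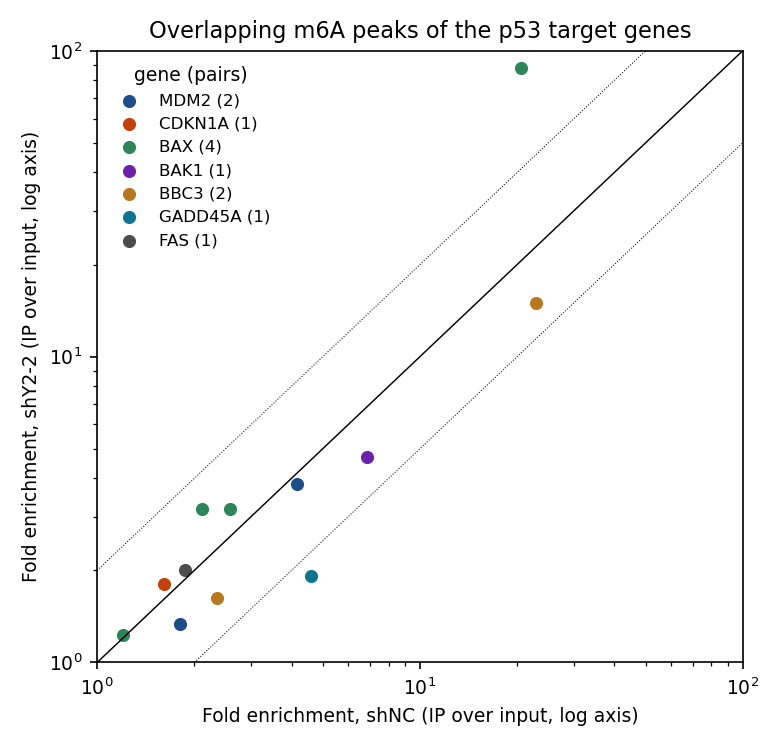
Fold enrichment (IP over input, log axes) of the 12 overlapping peak pairs of the p53 target genes, shNC on the horizontal and shY2-2 on the vertical axis; colours are genes, the solid line marks equal values and the dotted lines 2-fold. The BAX last exon lies far above the line (20.6 and 87.9), GADD45A lies below the lower dotted line (4.58 and 1.91), and the other 10 pairs lie within 2-fold.

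The gene names of the peak lists did not always follow the strand of the transcript. The rows of each chromosome are listed in 2 runs of rising position, and over spliced peaks the run equalled the strand of the splice junctions for 99.7% of 8343 peaks in shNC and 99.6% of 6234 in shY2-2, while the strand of the gene named did so for 92.4% and 91.2%. Strand taken from this order placed 3 of the 25 shNC peaks on the strand opposite to the gene named. One carried the name of BAK1 but had its splice edges on the strand of GGNBP1 (chr6:33575432-33583816). The other 2 carried the name of MDM2. One of them had its splice edges on the strand of CPM (chr12:68842197-68851341), and the other (chr12:68842918-68843237) was placed by order alone. Without these 3, 22 shNC peaks and 11 shY2-2 peaks remained, and by name the 8 genes had fewer in shY2-2. The share of all genes with fewer after the same removal was not computed, so this count has no background.

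The reverse also occurred, and it bore mainly on the shY2-2 list. Peaks that lay on the strand and over the reference exons of a gene among the 9 but carried another name numbered 1 in shNC and 6 in shY2-2. In shY2-2, 4 peaks over the long 3′-UTR of MDM2 carried the name of CPM or AC025423.4, genes of the opposite strand. The AC025423.4 peak (chr12:68843139-68843348) had a fold enrichment of 2.66 with an FDR of 0.00224, and it lay within a shNC peak named MDM2 with 3.97. The 3 CPM peaks had 1.34 to 1.38, with FDR values of 0.11 to 0.221. Counted by position and strand, with overlapping peaks of a list merged, MDM2 had 4 regions in shNC and 5 in shY2-2, the opposite direction to the count by name. The CPM peak nearest to the 3′ end (chr12:68843977-68844067) met no shNC peak.

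Peaks with another name also lay over TP53INP1 and FAS. A shY2-2 peak over the start of the TP53INP1 coding sequence, nt 386 to 715 of the spliced transcript, carried the name of NDUFAF6, but its splice edges were on the strand of TP53INP1. It had a fold enrichment of 3.14 with an FDR of 0.0708, and shNC had no peak over TP53INP1. At the far end of the 3′-UTR of the FAS reference transcript, a shY2-2 peak of 717 nt (chr10:89016343-89017059) carried the name of AL157394.1. That gene is on the same strand as FAS, so strand does not separate the 2 names. The peak had a fold enrichment of 6.94, but its FDR was 0.979. It lies past the end of FAS in the expression table, 89015785. Counted by position, with this peak included, the 9 genes had 22 regions in shNC and 16 in shY2-2. Of the 9 genes, 7 then had fewer in shY2-2 and 2, MDM2 and TP53INP1, had more. The share of all genes with fewer regions by position was not computed, so this count has no background. Before merging, 15 of 23 peaks by position in shNC met a peak of the other list, and 14 of 17 in shY2-2 (82.4%, against 66.5% of all peaks with strand taken the same way).

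**Figure D4:**
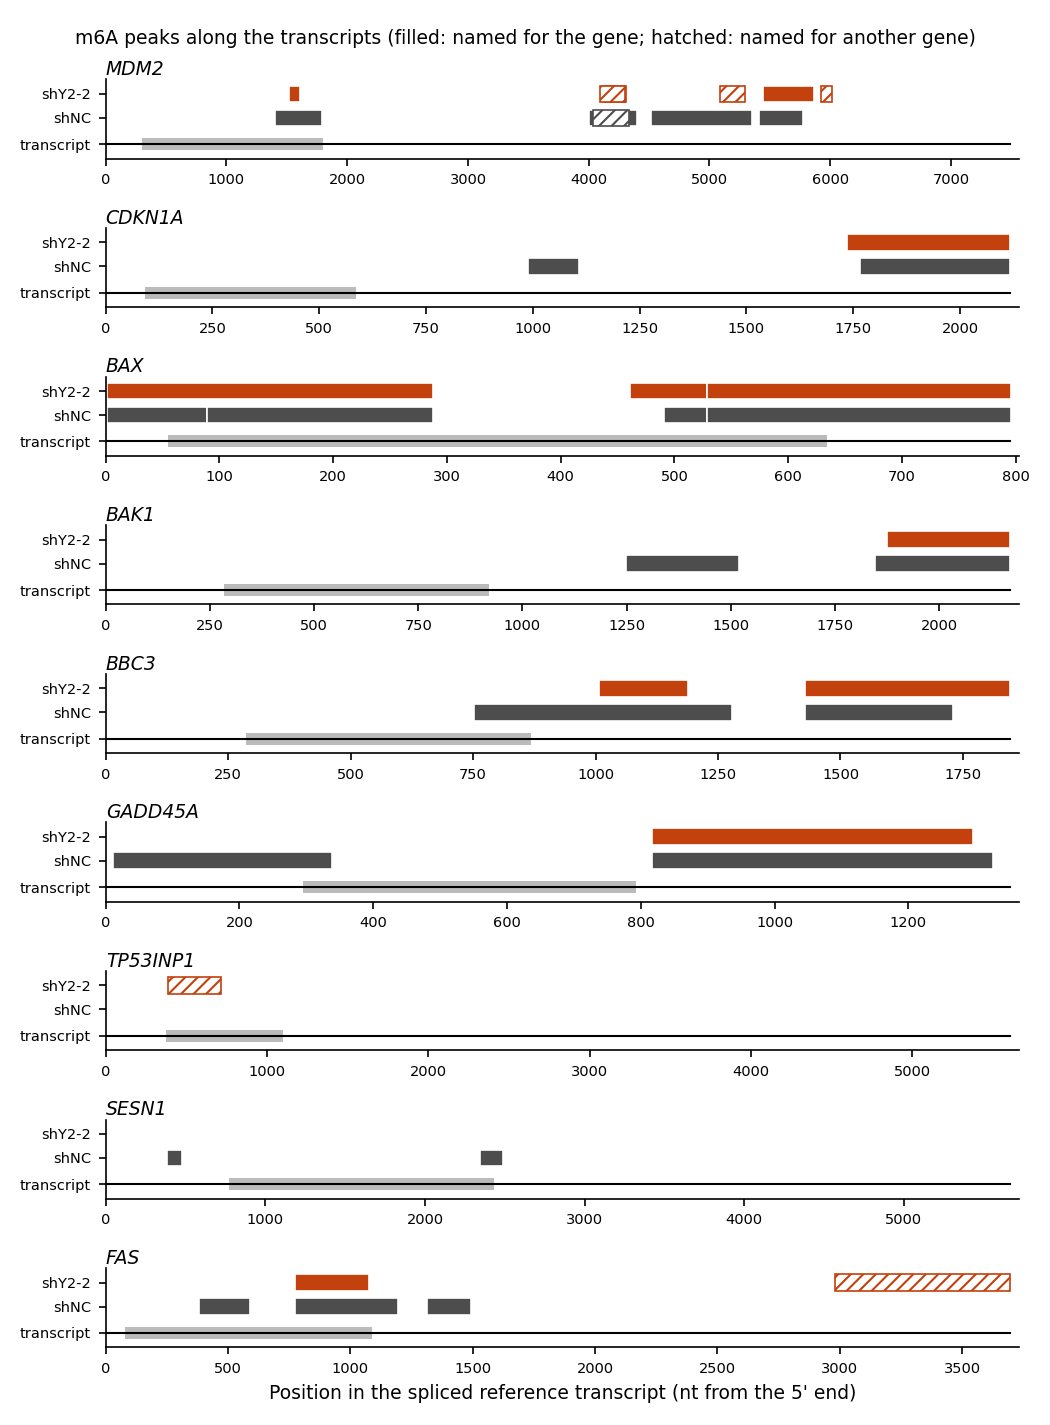
Peaks of shNC and shY2-2 along the spliced reference transcript of each gene, in nt from its 5′ end; the grey bar is the coding sequence, filled boxes are peaks named for the gene on its strand, and hatched boxes are peaks on its strand that carry the name of another gene. Peak parts outside the reference transcript are not drawn. In MDM2, 3 of the 4 hatched boxes of shY2-2 lie over shNC peaks of the 3′-UTR, and in BAX, CDKN1A, BAK1, BBC3 and GADD45A the peaks at the 3′ end are present in both lists.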

How the data were processed

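The authors mapped reads of 4 A549 libraries to GRCh38 with HISAT2 and used StringTie on the input libraries for the deposited FPKM values. The authors called peaks per condition, 1 IP against 1 input library, with exomePeak and named them with ChIPseeker. Each deposited peak has a p-value, a fold enrichment ratio and a log10 FDR score, all from the authors. Tool versions are not given in the sources used here. All FPKM columns had a sample.

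For each gene, 1 was added to both FPKM values and the log2 ratio of shY2-2 over shNC was taken, over the 12268 genes that reached an FPKM of 1 in a library. Peaks were taken by gene name and paired by the longest exonic overlap on the strand of the gene named. Strand was also read from the order of the rows. Genes named outside the 9 were those past 2-fold in a list, or else its extremes, and others where stated. The 9 genes and the lists were chosen with earlier results of these data known. The transcript of p53 itself is not reported here. The functions were tested on simulated data. The alternatives were other pseudocounts, filters, limits, overlap rules, location rules and motifs. Python 3.11.15, pandas 2.3.3, NumPy 2.4.6, pysam 0.24.0 and matplotlib 3.10.9 were used.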

Additional observations from a re-analysis of the deposited data

How the results depend on the processing

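No paired analysis was possible because there is a single input and a single IP library per condition, and no replicate could be left out either. The count of the 9 genes past 2-fold was 1 and became 2 with a pseudocount of 0.1 and 4 at a limit of 1.5-fold. With an FPKM of at least 5, list medians were -0.10 for p53 regulators, 0.53 for the FAS pathway and -0.05 for the paralogs, and without a filter 0.04 for the FAS pathway and -0.07 for the paralogs, in lists of few genes. With a pseudocount of 0.1 the median of the other cell type markers was -0.78. At an FDR of at most 0.001 the 9 genes had 14 shNC and 7 shY2-2 peaks, and at a fold enrichment of at least 2 they had 15 and 6, with 4 genes in both lists. The shares of all peaks past these limits were not computed. By the midpoint in the reference transcript, 12 shNC peaks lay in the 3′-UTR. GGACT was in 11 shNC peaks and DRACH in all 11 shY2-2 peaks. For the midpoint rule, GGACT and DRACH, too, the shares of all peaks were not computed. The cause of these shifts was not tested. Counting by strand and position, added after the data were seen, gave 22 and 16 regions. In 58 other recomputed values, a list median moved by at most 0.1 or a count stayed within 1.5 times of the one reported. Of 39 values of single genes and pairs, 38 stayed on their side of 2-fold. Unknown depth and single libraries limit every value, and a list of few genes or weak peaks most.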
